A study of Mus musculus with 20 samples.

Results

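The staggerer mutation of Rora was compared between 2 tissues, liver and white adipose tissue (WAT), by asking of each gene whether the difference between mutant and wild-type mice was the same in both. All 20 arrays of the study entered the comparison. Of 28874 gene names on the array, 17120 were tested, namely those with a probe called well above background by the scanner software on 4 or more arrays of liver and on 4 or more of WAT, where each tissue has 10. The number reported for a gene is the interaction: the effect of genotype in WAT (sg/sg minus WT, on the log2 scale) minus the effect of genotype in liver. A gene was called when its interaction had a Benjamini-Hochberg adjusted p under 0.05 in limma, and it was then sorted by whether each tissue's own effect was called.

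The 4 groups were WT liver, sg/sg liver, WT WAT and sg/sg WAT, with 5 arrays each. All mice were C57BL/6 males of 5 months of age that had been fed a diet with 35% fat for 6 weeks, so no group on another diet stands beside them. The sg/sg mice carry a natural deletion in Rora on both chromosomes, in every cell of the body and from before birth, so an effect in one tissue can come from the loss of the gene there or elsewhere. The fat depot is not named in the labels. The design text gives 5 mice of each genotype but does not tie a liver array to a WAT array, and the arrays were treated as separate samples.

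RORα, the product of Rora, is a nuclear receptor that binds DNA mostly as a monomer, at a half-site with an A- and T-rich stretch before it, and there activates transcription without needing a classical hormone. It drives parts of the circadian clock in competition with the REV-ERB repressors, and in liver it acts on genes of lipid and steroid metabolism. Staggerer mice, named for the unsteady gait that follows the loss of cerebellar Purkinje cells, are lean and gain little fat on a rich diet. WAT stores triglyceride in adipocytes and, in obesity, takes up macrophages, whereas liver both makes and burns fatty acids and holds its own macrophages, the Kupffer cells.

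Signal was higher in WAT than in liver. The 75th percentile of intensity, by which each array was scaled, was 648 to 1090 on the liver arrays and 1352 to 2598 on the WAT arrays, and 56.5% to 62.4% of probes were well above background in liver against 71.9% to 81.1% in WAT. The number of arrays limits the precision: the median SE of an interaction was 0.21 log2 units. In liver, genotype was nearly bound to the slide: slide 1 held 4 WT arrays, slide 2 held 1 WT and 3 sg/sg arrays, and slide 3 held 2 sg/sg arrays. Each of the 3 WAT slides held both genotypes. No slide held both tissues. With the slide as a fixed block, 710 interactions were called in place of 3673, and 667 of these were among the 3673. Of the 3673, 99.0% kept their sign with the block, and the median ratio of the blocked to the unblocked value was 0.921. The block left 2 genes called in liver itself and 3941 in WAT. Within slide 2, which compares 3 sg/sg livers with 1 WT liver, all 77 named genes called in liver kept the sign of their effect. For 19 of them the size there was below that over all livers divided by 1.5. These livers are among those that gave the calls, and some named genes were chosen for genotypes fully apart in liver. The kept sign is thus no separate check. Of the 118 named genes with an interaction call, 63 kept it with the slide block and 55 lost it: 24 of 42 WAT-only genes kept it, 2 of 20 liver-only genes, 35 of 48 opposite genes and 2 of 8 with unequal size. Losses are given below for the genes described. WT WAT replicate 2 and sg/sg WAT replicate 4 stood apart from their groups more often than other arrays. Without both of them, 4334 interactions were called, 2478 genes changed in WAT only, 811 in liver only and 493 in opposite directions.

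All 8 hepatocyte markers were well above background on 4 or more of the 5 livers of each genotype, and all 8 adipocyte markers on as many WAT arrays. Plin1, which coats the fat droplet of adipocytes, and Lep, which encodes leptin, were above background on no liver array. The summed hepatocyte level (intensity over the 75th percentile, linear scale) ran from 1776 to 2413 in WT liver and from 2508 to 2952 in sg/sg liver, without overlap, and the endothelial level from 11.8 to 15.8 and from 16.6 to 19.7. Their part in the liver results was not tested. The arrays measure RNA of the whole tissue, where fewer cells of a type and less RNA per cell cannot be told apart.

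Rora itself was lower to a similar degree in both tissues. Levels are given as log2 of intensity over the array's 75th percentile, from replicate 1 to replicate 5. WT livers stood at 2.07, 1.90, 2.22, 1.99 and 2.05, and sg/sg livers at -0.91, -1.05, -0.65, -0.51 and -1.04. The WAT arrays gave 0.10, -0.14, 0.21, -0.01 and 0.08 for WT and -2.53, -2.38, -2.52, -3.18 and -2.75 for sg/sg mice. Every sg/sg array lay below every WT array of its tissue, which fits the labels. The fall was 7.36-fold in liver and 6.59-fold in WAT, and their difference was 0.16 log2 units (95% interval -0.25 to 0.57, adjusted p = 0.596). This interval leaves room for a small difference. The sign of that small value is not fixed, since it was -0.12 after quantile normalization of all arrays. All 3 Rora probes, at mm7 chr9:69410920-69410979, chr9:69411020-69411079 and chr9:69417414-69417473, gave differences between 0.057 and 0.16, and the last of them was not well above background on any of the 5 sg/sg livers. Whether any of them lies in the deleted stretch is not known here, and the probe positions come from the array files, on a build for which no annotation was used.

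The effect of the mutation differed between the tissues for 3673 of 17120 genes (21.5%). It was above the liver effect in WAT for 1989 genes (11.6%) and below it for 1684 (9.84%). The genotype effect alone was called for 2764 genes in liver (16.1%) and for 4501 in WAT (26.3%). Among the interaction genes, 1921 (11.2%) changed in WAT only, 809 (4.73%) in liver only, 376 (2.2%) in opposite directions and 39 (0.228%) in the same direction with unequal size. A further 528 had an interaction call with neither effect called, and 381 genes changed the same way in both tissues without an interaction call. The median over all tested genes was 0.05 for the liver effect, 0.08 for the WAT effect and 0.04 for the interaction. Scaling each array by its median moved the median interaction to 0.15, and the share of calls with the WAT effect above the liver effect from 54.2% to 66.1%. Normexp background correction moved that median to 0.19. Changes are read relative to these medians.

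**Figure D1:**
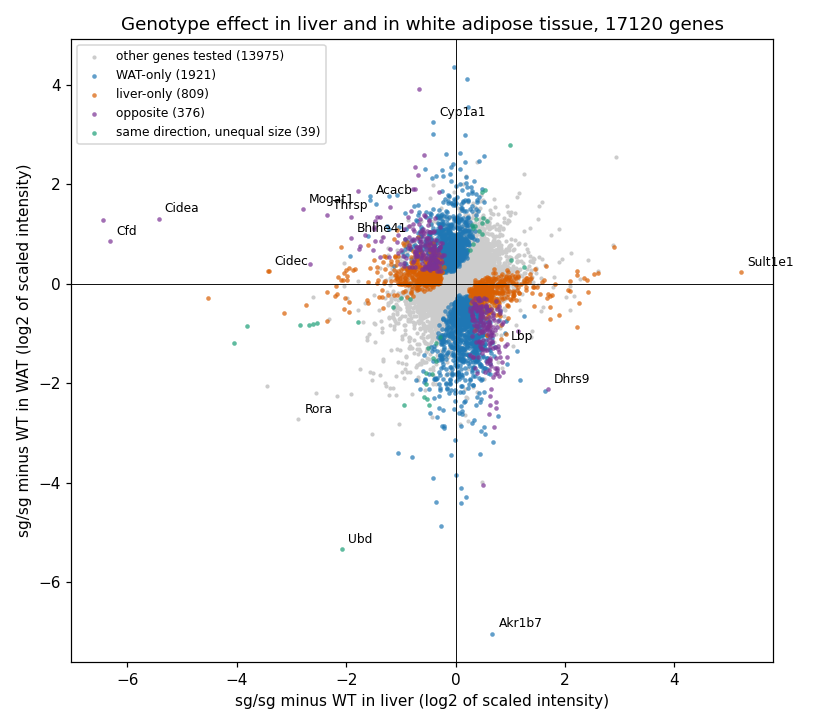
Genotype effect (sg/sg minus WT, log2 of scaled intensity) in liver on the horizontal axis and in WAT on the vertical axis, 1 point per gene for 17120 genes. Colours mark the 1921 genes changed in WAT only, the 809 in liver only, the 376 in opposite directions and the 39 in the same direction with unequal size, and grey marks the rest. Opposite responses fill the upper left and lower right, and Rora lies at lower left with a similar fall in both tissues.

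The genes with the smallest interaction p held both one-tissue and opposite responses. Fn3k, which encodes fructosamine 3-kinase, an enzyme that removes sugar adducts from proteins (probe at mm7 chr11:121559459-121559518), headed the list. On the WAT arrays it stood at -3.05, -2.87, -2.69, -2.71 and -2.41 in WT and at 0.11, -0.03, 0.19, -0.20 and -0.62 in sg/sg mice. In liver it was at 3.39, 3.31, 3.37, 3.33 and 3.32 in WT and at 3.34, 3.35, 3.26, 3.60 and 3.60 in sg/sg mice. The WAT groups were far apart, a rise of 6.21-fold, while the liver groups overlapped with an effect of 0.09 (95% interval -0.10 to 0.28). Its interaction was 2.55 ± 0.19 (SE, adjusted p = 9.49e-07), and 2.64 with the slide block (adjusted p = 0.00179).

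Dna2, a nuclease and helicase of DNA replication and repair (mm7 chr10:62492461-62492520), went opposite ways. Its levels were -0.45, -0.74, -0.67, -0.64 and -0.60 in WT liver and -0.04, -0.09, 0.10, -0.03 and 0.07 in sg/sg liver. WT arrays of WAT stood at -2.30, -2.55, -2.41, -2.66 and -2.45, and sg/sg arrays at -3.90, -3.85, -3.37, -3.47 and -3.71. Neither pair of groups overlapped, and the interaction was -1.81 ± 0.14 (adjusted p = 1.22e-06). It kept its call with the slide block at -1.83. It is the one of these 10 genes whose call was lost with normexp background correction.

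Of the other 8, Fam13a, which has been tied to the distribution of body fat, was lower in sg/sg liver at 1.22, 1.42, 1.50, 1.39 and 1.22 than in WT liver at 2.30, 2.27, 1.89, 2.03 and 1.71. In WAT it was higher at 2.73, 3.43, 2.95, 2.71 and 2.67 than in WT at 0.72, 0.19, 1.32, 0.62 and 0.74. The groups were apart in both tissues, with an interaction of 2.87 ± 0.25 (adjusted p = 2.99e-06). Within liver slide 2 its fall was smaller, -0.33 against -0.69 over all livers. Syde2, a regulator of small GTPases, Dennd2d, of the DENN family that activates Rab GTPases, and Sfxn1, the mitochondrial serine carrier, had the same pattern, with interactions of 2.16, 2.65 and 1.97. Kcnq1, a voltage-gated potassium channel, had the reverse one, with effects of 0.47 in liver, 0.29 within slide 2, and -0.95 in WAT. All 10 genes kept an interaction call with the slide block. The remaining ones, Zfp979, Arg1 and Acot4, are described with their classes.

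Genes lower in sg/sg liver and higher in sg/sg WAT numbered 201, with median effects of -0.55 and 0.70. Cidea, a protein that fuses and enlarges lipid droplets and is typical of brown fat, was at 1.47, 5.82, 2.82, 1.69 and 0.37 in WT liver and at -2.13, -4.02, -3.23, -2.65 and -2.96 in sg/sg liver. WAT gave 1.09, 1.17, 0.46, 1.03 and 1.02 for WT and 2.11, 2.70, 2.0, 2.70 and 1.80 for sg/sg mice. Neither tissue's groups overlapped. The WT livers differed among themselves by over 5 log2 units, and the highest was replicate 2. The liver effect was -5.43 (95% interval -7.33 to -3.53) and the WAT effect 1.31 (0.85 to 1.77). The interaction of 6.74 ± 0.93 (adjusted p = 9.2e-05) became 4.86 with the slide block and was no longer called (adjusted p = 0.0542). Within liver slide 2 the fall was -3.49.

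Cfd, which encodes the serine protease adipsin, a complement factor secreted by adipocytes (mm7 chr10:79672573-79672632), had the largest opposite difference among named genes. Its levels were -0.68, 3.20, 2.99, 1.35 and 2.20 in WT liver and -5.81, -3.96, -4.76, -5.85 and -2.18 in sg/sg liver, where 3 of 5 arrays were well above background. WT arrays of WAT stood at 7.01, 5.75, 6.91, 6.98 and 7.06, and sg/sg arrays at 7.39, 7.66, 7.45, 8.02 and 7.44. The groups were apart in both tissues, and the WT WAT value of 5.75 was far below the other 4. The interaction was 7.17 ± 0.94 (adjusted p = 6.22e-05), 7.82 with the slide block (adjusted p = 0.0167), and the liver fall within slide 2 was -7.04.

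Cfd and Cidea are also expressed by adipocytes. The summed level of the 8 adipocyte markers (intensity over the 75th percentile, linear scale) ran from 129 to 216 in WT liver and from 140 to 276 in sg/sg liver, which overlap. It ran from 578 to 890 over the WT arrays of WAT and from 909 to 1172 over the sg/sg arrays, which do not. Of these markers, Adipoq too was above background on no WT liver. Only 4 of the 8 were well above background on 4 or more livers of each genotype. The sum in liver need therefore not follow adipocytes, and their part in the liver change of Cfd and Cidea was not tested. The higher adipocyte sum in sg/sg WAT goes with the rise of lipid genes there, and its part in that rise was not tested.

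Among the 26 synthesis genes for fatty acids and triglyceride, 4 were opposite: Mogat1, Gpat3, Thrsp and Lpin1. Mogat1, which adds a fatty acid to monoacylglycerol, was at -0.58, 2.29, -0.13, 0.16 and -0.66 in WT liver and at -2.58, -3.48, -2.53, -2.63 and -1.65 in sg/sg liver. Its WAT levels were 1.23, -0.05, 1.41, 1.31 and 1.34 for WT and 2.48, 2.57, 2.75, 2.90 and 2.08 for sg/sg mice. All sg/sg livers lay below all WT livers and all sg/sg WAT above all WT WAT, and the interaction was 4.30 ± 0.64 (adjusted p = 0.000147). Gpat3, which starts glycerolipid assembly by acylating glycerol 3-phosphate, had effects of -1.36 and 0.86. Within liver slide 2 the values were -2.21 for Mogat1 and -1.54 for Gpat3.

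Thrsp (Spot 14, a nuclear and cytosolic protein that promotes fatty acid synthesis, at mm7 chr7:93448487-93448546) was at 5.25, 7.69, 7.93, 5.89 and 7.13 in WT liver and at 4.03, 3.63, 4.65, 5.71 and 4.09 in sg/sg liver. The WAT values were 5.86, 4.0, 5.96, 5.49 and 5.50 for WT and 6.56, 6.81, 6.62, 7.33 and 6.40 for sg/sg mice. The liver groups overlapped at 1 array, sg/sg replicate 4, and the WAT groups did not. Its interaction was 3.74 ± 0.69 (adjusted p = 0.000848). Plin4, a coat protein of nascent lipid droplets, fell by 2.66 in liver and rose by 0.40 in WAT, and its interaction of 3.06 lost its call with the slide block (2.51, adjusted p = 0.0753).

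**Figure D2:**
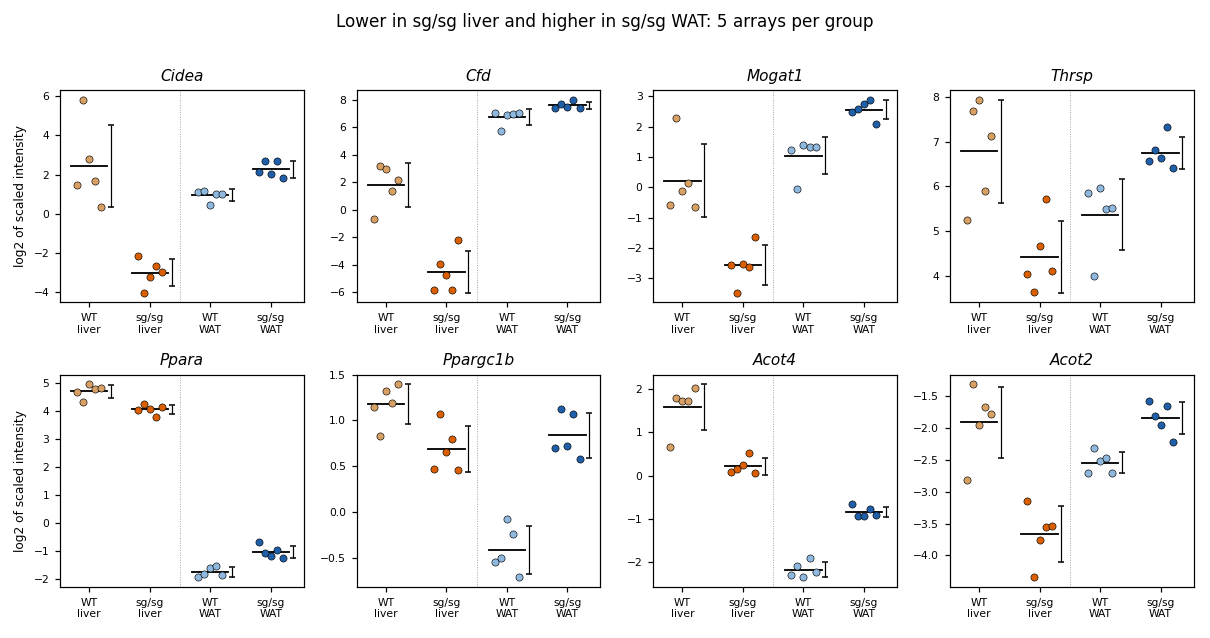
Levels of 8 lipid genes (log2 of intensity over each array's 75th percentile) in WT liver, sg/sg liver, WT WAT and sg/sg WAT, with 1 point per array in replicate order, a line at the mean of 5 arrays and a bar of 1 SD beside it. For Cidea, Cfd, Mogat1, Ppara, Acot4 and Acot2 the sg/sg points lie below all WT points in liver and above all of them in WAT. For Thrsp and Ppargc1b the liver groups overlap.

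Factors and enzymes of fatty acid burning were in the same class. Ppara, the receptor that turns on fatty acid oxidation in fasting (mm7 chr15:85883890-85883949), was at 4.68, 4.32, 4.96, 4.77 and 4.80 in WT liver and at 4.05, 4.23, 4.07, 3.80 and 4.13 in sg/sg liver. In WAT it was at -1.94, -1.80, -1.61, -1.54 and -1.87 in WT and at -0.69, -1.06, -1.17, -0.96 and -1.24 in sg/sg mice. The groups were apart in both tissues, and the effects of -0.65 and 0.73 were of like size. The interaction was 1.38 ± 0.18 (adjusted p = 5.57e-05), and 1.49 with the slide block (adjusted p = 0.00965).

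Ppargc1b, a coactivator of mitochondrial genes, had effects of -0.49 in liver and 1.25 in WAT, with liver groups that overlapped. Acot4, a thioesterase that frees dicarboxylic and other acids from coenzyme A in peroxisomes (mm7 chr12:82039908-82039967), was at 0.67, 1.79, 1.72, 1.72 and 2.03 in WT liver and at 0.08, 0.15, 0.25, 0.53 and 0.05 in sg/sg liver. WAT gave -2.31, -2.10, -2.36, -1.92 and -2.23 for WT and -0.66, -0.93, -0.93, -0.78 and -0.91 for sg/sg mice. The groups were apart in both tissues, and the interaction was 2.72 ± 0.26 (adjusted p = 4.16e-06). Acot2, the mitochondrial member of the family, fell by 1.76 in liver and rose by 0.70 in WAT. Within liver slide 2 Ppargc1b, Acot4 and Acot2 were at -0.67, -1.87 and -1.96. The Acot genes lie side by side and are much alike, so their probes may share signal.

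The same class held Acss3, an acyl-CoA synthetase of propionate, with effects of -1.91 and 1.33, Pfkfb1, which sets the level of fructose 2,6-bisphosphate, with -0.62 and 1.06, and Fmo1, a flavin monooxygenase, with -0.61 and 0.95. Krt23, a keratin, and Aatk, a kinase, had interactions of 2.78 and 2.72, and Krt23 was well above background on 2 of 5 WT WAT arrays. Bhlhe41 (DEC2), a clock repressor, was not well above background on any sg/sg liver array: it was at least 1.76-fold lower there than in WT liver (fitted effect -1.92) and 1.90-fold higher in sg/sg WAT (0.93, adjusted p = 0.0338). Cabp4, a calcium-binding protein known from photoreceptors, was also not well above background in sg/sg liver, where it was at least 2.06-fold lower, and rose by 1.86 in WAT. These bounds set the mean of the WT arrays against, on each sg/sg array, the higher of the lowest signal that counts as well above background and the probe's own.

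Genes higher in sg/sg liver and lower in sg/sg WAT numbered 175, with median effects of 0.54 and -0.84. Macrophage and innate immune genes were among them. Cd68, a glycoprotein of macrophage lysosomes (mm7 chr11:69746386-69746445), was at 0.23, 0.19, -0.27, -0.60 and -0.06 in WT liver and at 0.63, 0.40, 0.36, 0.66 and 0.81 in sg/sg liver. Its WAT levels were 3.90, 4.57, 3.0, 3.01 and 2.98 for WT and 1.44, 1.55, 1.96, 1.15 and 1.98 for sg/sg mice. The groups were apart in both tissues. The effects were 0.68 and -1.88 and the interaction -2.56 ± 0.38 (adjusted p = 0.000138), which the slide block left at -2.39 (adjusted p = 0.0405).

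Csf1r, the receptor of the growth factor that keeps macrophages alive, had effects of 0.52 and -0.77, and C1qa, a chain of complement C1q made by macrophages, 0.80 and -0.59. Both lost their interaction call with the slide block (adjusted p = 0.0696 and 0.096). Of the 9 macrophage markers, 8 had an interaction call, all with the WAT effect below the liver effect: Cd68, Csf1r, C1qa, C1qb and C1qc in opposite directions and Adgre1, Mrc1 and Trem2 in WAT only. Lyz2, the ninth, was not called (interaction -0.44, adjusted p = 0.0732). The list's median was 0.52 in liver, -0.77 in WAT and -1.39 for the interaction. With the slide block 2 of the 9 were called, at a median of -1.29.

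The summed macrophage level was 64.9 to 116 in WT liver and 111 to 134 in sg/sg liver, and 218 to 342 over the WT arrays of WAT against 162 to 218 over the sg/sg arrays. The ranges met or overlapped at their ends. It moved with the immune genes below, and its part in their change was not tested.

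Irf5, a transcription factor of inflammatory macrophages (mm7 chr6:29469047-29469106), was at 1.50, 0.29, 0.69, 0.71 and 1.11 in WT liver and at 2.01, 1.86, 1.21, 1.63 and 1.84 in sg/sg liver. The WAT values were 1.98, 2.23, 1.37, 1.34 and 1.61 for WT and 0.07, 0.22, 0.52, -0.43 and 0.26 for sg/sg mice. The liver groups overlapped at 1 array of each genotype and the WAT groups did not, with an interaction of -2.43 ± 0.32 (adjusted p = 6.84e-05). Tgfb1, a cytokine of scarring and immune restraint (mm7 chr7:22478890-22478949), had effects of 0.63 and -0.84 and groups apart in both tissues. The inflammasome genes Pycard, its adaptor, and Casp1, its protease, had interactions of -1.54 and -1.68, and Tlr7, the sensor of single-stranded RNA, -1.54, which lost its call with the slide block (adjusted p = 0.087). The liver effect of Pycard was 0.38, and 0.15 within slide 2.

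Lbp, which hands bacterial lipopolysaccharide to CD14 and is an acute phase protein of liver, was at 3.61, 3.19, 2.73, 3.30 and 3.21 in WT liver and at 3.92, 4.30, 3.80, 4.20 and 4.32 in sg/sg liver. On the WAT arrays it stood at 4.65, 4.50, 4.97, 4.88 and 4.65 in WT and at 3.47, 3.26, 3.38, 3.65 and 3.64 in sg/sg mice. The groups were apart in both tissues, with effects of 0.90 and -1.25, an interaction of -2.15 ± 0.21 (adjusted p = 4.16e-06) and -2.06 with the slide block (adjusted p = 0.00785). Dhrs9, a dehydrogenase of retinol and steroids (mm7 chr2:69334956-69335015), was at -2.84, -3.0, -4.86, -4.14 and -3.14 in WT liver and at -1.68, -1.97, -1.30, -2.15 and -2.46 in sg/sg liver. In WAT it was at -0.28, 0.67, -2.08, -1.48 and -1.56 in WT and at -3.0, -3.36, -2.49, -3.53 and -2.98 in sg/sg mice. It had the largest interaction among the named genes of this direction, -3.81 ± 0.64, with a slide-block value of -3.54 (adjusted p = 0.0557).

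Hk3, the hexokinase of myeloid cells, had effects of 0.74 and -2.37, Evi2 0.86 and -1.77, and Otulinl 0.80 and -1.48. Timp1, the inhibitor of metalloproteinases, rose by 0.63 in liver, but by 0.10 within slide 2, and its WAT effect was -2.26. Its other tested probe fell in both tissues, by -0.44 in liver and -2.69 in WAT. The interaction of that probe was not called (limma, adjusted p over probes = 0.0616), so the opposite direction rests on 1 probe. Abcg1, the transporter that exports cholesterol from macrophages, had effects of 0.34 and -0.95, and Grb14, an adaptor that blocks the insulin receptor, 0.36 and -1.69. Mrgpre had effects of 1.13 and -0.94, and 0.18 within liver slide 2. The calls of Abcg1, Grb14 and Mrgpre were lost with the slide block (adjusted p = 0.169, 0.0846 and 0.225). For Cryba4, Klra2 and Tmem26 the direction depends on the background correction: their interactions were -2.42, -2.14 and -1.88, and 0.025, 0.016 and 0.44 after normexp. Their liver effects of 0.94, 0.93 and 0.54 were 0.39, 0.43 and 0.23 within slide 2, and the slide block ended the calls of Cryba4 and Tmem26 (adjusted p = 0.102 and 0.151).

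**Figure D3:**
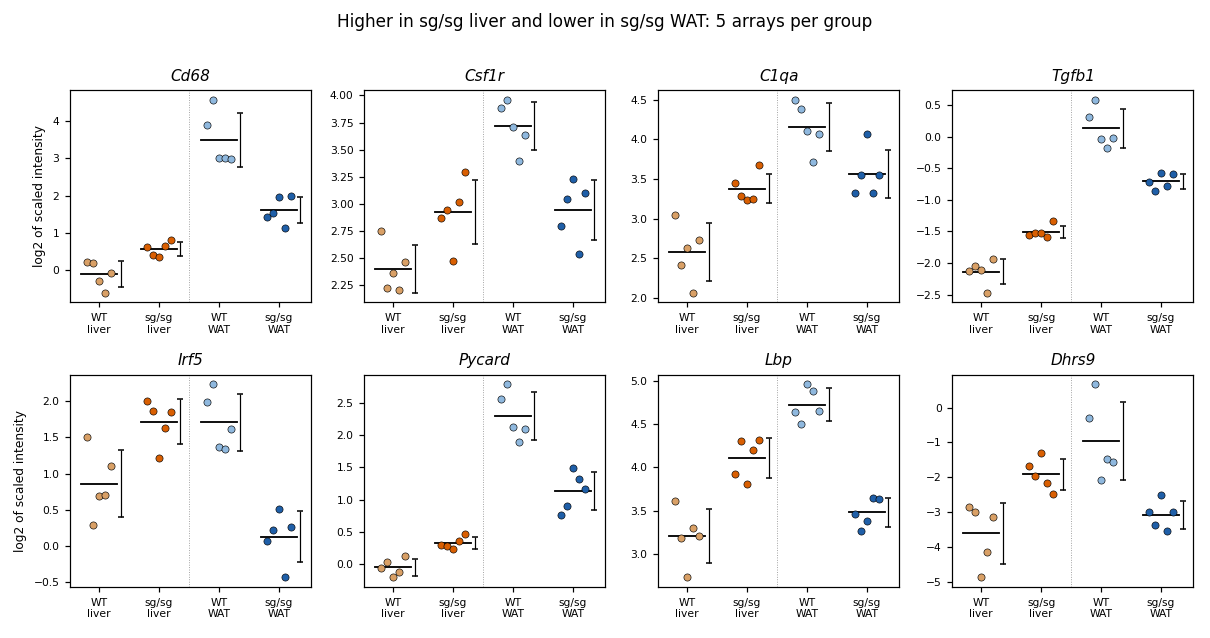
Levels of 8 genes that were higher in sg/sg liver and lower in sg/sg WAT (log2 of intensity over each array's 75th percentile), drawn as for the lipid genes: 1 point per array, a line at the mean of 5 and a bar of 1 SD. Cd68, Tgfb1, Pycard, Lbp and Dhrs9 do not overlap in either tissue, C1qa overlaps in WAT, and Csf1r and Irf5 overlap in liver.

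Since RORα binds the half-site AGGTCA after an A- and T-rich stretch, the promoters of the opposite genes were searched for TAGGTCA on both strands. The RefSeq windows on GRCm38.p6 ran from 250 bases before the start of the gene to 50 after it. Of 247 opposite genes with a promoter there, 7 held it (2.83%), against 2.58% of all tested genes with a promoter, 3.05% of the genes changed in WAT only and 2.97% of all genes with a window. The shorter AGGTCA was held by 18.6% of opposite genes and 15.7% of tested genes. These shares count matches anywhere in the window, also past the start, and no test of them was made. The windows printed below are shorter: they hold the motif with up to 25 bases on each side and end before the start. The windows of 4 genes are shown to let the letters be read beside the direction of change: Dhrs9, C1qc and the myosin Myo1f, higher in sg/sg liver and lower in WAT, and Mpc1, a subunit of the mitochondrial pyruvate carrier, lower in liver and higher in WAT. The capitals mark the motif, which lies on the strand opposite to the gene in each and so reads TGACCTA.
The Dhrs9 window lies at chr2:69380349-69380405, plus strand, that of C1qc at chr4:136893057-136893113, minus strand, that of Myo1f at chr17:33555566-33555622, plus strand, and that of Mpc1 at chr17:8284204-8284241, plus strand.
Dhrs9: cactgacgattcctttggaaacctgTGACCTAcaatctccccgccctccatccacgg
C1qc: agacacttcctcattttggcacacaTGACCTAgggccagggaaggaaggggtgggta
Myo1f: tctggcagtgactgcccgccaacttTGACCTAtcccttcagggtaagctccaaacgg
Mpc1: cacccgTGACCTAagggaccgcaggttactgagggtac
The interactions of these genes were -3.81 for Dhrs9, -1.12 for C1qc, -2.77 for Myo1f and 1.17 for Mpc1. A match is a stretch of letters and not a measured binding site.

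Of the 1921 genes changed in WAT only, 1049 were higher and 872 lower in sg/sg WAT, and 633 by at least 2-fold. For 1270 of them the 95% interval of the liver effect lay within 1.5-fold in either direction. For the others a liver effect was not called but was not bounded as tightly. With the slide block 386 (20.1%) of the 1921 kept an interaction call.

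Acacb, the acetyl-CoA carboxylase whose product holds back fatty acid entry into mitochondria (mm7 chr5:113472402-113472462), was at 2.23, 1.88, 1.94, 1.48 and 1.91 in WT WAT and at 3.33, 3.65, 3.29, 4.51 and 3.09 in sg/sg WAT. In liver it was at 0.46, 2.61, 2.90, 1.08 and 1.68 in WT and at 0.27, -0.68, 0.14, 1.47 and -0.30 in sg/sg mice. The WAT groups were apart; the liver groups overlapped, and the liver effect of -1.57 missed the threshold (95% interval -2.70 to -0.43, adjusted p = 0.0605). Its place among WAT-only genes therefore rests on that threshold. Pnpla3, a lipase and acyltransferase of lipid droplets, was alike, with effects of 1.60 in WAT and -1.45 in liver (-2.99 to 0.09), and its call was lost with the slide block (adjusted p = 0.0874).

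Pon1, the esterase carried on high-density lipoprotein, rose 7.91-fold in WAT and had a liver effect of 0.18 (-0.01 to 0.36), and its interaction of 2.81 was not called with the slide block (2.83, adjusted p = 0.0671). The level of the 8 hepatocyte markers ran from 1.31 to 17.1 over the WT arrays of WAT and from 2.21 to 11.8 over the sg/sg arrays, which overlap. Ppargc1a, the coactivator of mitochondrial biogenesis, rose by 1.58 with a liver effect of 0.00 (-0.34 to 0.33). Ppp1r3b, which brings the phosphatase PP1 to glycogen, rose by 2.57, and Abcg5, a sterol exporter, by 1.63.

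Cyp1a1, the enzyme induced through the aryl hydrocarbon receptor, rose by 3.25 in WAT (95% interval 2.04 to 4.47), where 2 of 5 WT arrays were well above background. Its WT WAT levels spread from -9.40 to -6.37, and the interaction of 3.67 lost its call with normexp. Ly6d, a surface protein of the Ly6 family, rose by 0.96 in WAT and was at 3.01 in 1 WT liver against -1.11 to -0.35 in the other 4. Every sg/sg liver lay below every WT liver, but the liver effect of -1.60 was not called (95% interval -3.12 to -0.07, adjusted p = 0.133). The place of Ly6d among WAT-only genes therefore rests on that threshold. Its interaction fell from 2.56 to 1.62 with the slide block, where it was not called (adjusted p = 0.556).

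Among genes that fell in WAT only, Arg1, the arginase of the urea cycle and of alternatively activated macrophages (mm7 chr10:24669046-24669105), was at -1.23, -1.21, -1.53, -1.19 and -1.06 in WT WAT and at -5.65, -5.72, -5.60, -5.90 and -3.87 in sg/sg WAT. In liver it was at 6.64, 6.15, 6.58, 6.28 and 6.67 in WT and at 6.40, 6.82, 6.46, 6.95 and 6.21 in sg/sg mice. The WAT fall was 17.2-fold with no overlap, while the liver effect was 0.10 (-0.25 to 0.46). Its interaction was -4.21 ± 0.39 (adjusted p = 3.81e-06), and -4.11 with the slide block (adjusted p = 0.00486).

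Rgs1, a brake on chemokine receptor signalling in leukocytes (mm7 chr1:144171113-144171172), was at 1.58, 2.66, 0.04, 0.58 and -0.09 in WT WAT and at -4.25, -4.05, -4.07, -4.75 and -2.50 in sg/sg WAT. Livers stood at -3.03, -2.92, -3.63, -3.63 and -3.76 in WT and at -3.52, -3.41, -4.35, -3.83 and -3.24 in sg/sg mice. The WAT groups were apart, and the liver groups overlapped with an effect of -0.27 (-0.79 to 0.25). The interaction was -4.60 ± 0.64 (adjusted p = 9.78e-05), and -4.82 with the slide block (adjusted p = 0.0216). Il1rn, the antagonist of the interleukin 1 receptor, fell by 4.40 in WAT and Ccl7, a chemokine of monocytes, by 2.61, neither with a call in liver. Rnf128, a ubiquitin ligase, fell by 4.42, and Lipf, known as gastric lipase, by 4.29. The slide block ended the interaction calls of Il1rn and Rnf128 (adjusted p = 0.0546 and 0.0758).

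Akr1b7, an aldose reductase-like enzyme of adrenal, male genital tract and fat, had the largest WAT-only interaction among the named genes, -7.71. Its levels were -5.77, -2.60, -1.43, -0.15 and 2.54 in WT WAT and -7.48, -7.54, -9.74, -8.55 and -9.30 in sg/sg WAT. No sg/sg WAT array was well above background, so it was at least 77.5-fold lower there. The spread among WT arrays was over 8 log2 units. The summed level of 5 epididymal markers ran from 0.048 to 0.77 over the WT arrays of WAT and from 0.049 to 0.095 over the sg/sg arrays, and its part in this result was not tested. The interaction call was lost with normexp and with the slide block (-7.56, adjusted p = 0.0619).

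Of the 809 genes changed in liver only, 382 were higher and 427 lower in sg/sg liver, and 143 by at least 2-fold. For 545 of them the 95% interval of the WAT effect lay within 1.5-fold. Of these 809, 786 kept the sign of the liver effect within slide 2, at a median of 0.70 of the value over all livers. The slide 2 livers are part of those that gave the calls, so this is no separate check. Only 46 (5.69%) kept an interaction call with the slide block. The count also rested on single livers: it was 504, 347 and 288 without WT replicates 2, 3 and 4 and 526 and 512 without sg/sg replicates 3 and 5.

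Sult1e1, the sulfotransferase that inactivates estrogens (mm7 chr5:87512926-87512985), rose most among the named genes of this class. It was at -1.88, -2.0, -2.30, -2.98 and -1.11 in WT liver and at 2.97, 3.57, 2.26, 4.39 and 2.62 in sg/sg liver. Its WAT levels were 1.74, 2.58, 1.74, 1.48 and 1.75 for WT and 2.56, 1.90, 2.76, 2.07 and 1.13 for sg/sg mice. The liver groups were apart by 37.2-fold, and the WAT groups overlapped with an effect of 0.23 (-0.45 to 0.90). The interaction was -4.99 ± 0.55 (adjusted p = 1.59e-05), and -3.74 with the slide block (adjusted p = 0.0217). Within slide 2 the liver effect was 4.05.

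Cyp39a1, which hydroxylates 24-hydroxycholesterol on the way to bile acids (mm7 chr17:41871184-41871243), was at 1.83, 1.41, 0.73, 1.23 and 1.82 in WT liver and at 2.83, 3.68, 3.54, 4.37 and 3.66 in sg/sg liver, with no overlap. Its effects were 2.21 in liver and 0.26 in WAT (-0.10 to 0.61), and its interaction of -1.95 became -1.33 with the slide block and was no longer called (adjusted p = 0.112). Pou4f1 and Cpne6, both best known from neurons, rose by 2.23 and 2.89 in liver but by 0.37 and 0.34 within slide 2. With the slide block the interaction of Cpne6 turned from -2.15 to 0.57, and that of Pou4f1 went from -2.06 to -0.18, and neither was called there (adjusted p = 0.684 and 0.847). Ppp1r42 and Fam222a rose by 2.22 and 1.72, and by 2.37 and 1.51 within slide 2, but both lost their interaction call with the slide block (adjusted p = 0.255 and 0.0839), and Ppp1r42 also with normexp.

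Zfp979, a zinc finger gene (mm7 chr4:146601807-146601866), fell most among them. It was at -0.01, 0.44, -0.08, -1.03 and -1.29 in WT liver and at -4.32, -5.43, -4.93, -5.03 and -4.87 in sg/sg liver, where 2 of 5 arrays were well above background. The WAT values were -1.20, -1.27, -0.57, -0.59 and -0.62 for WT and -1.09, -1.24, -1.15, -1.08 and -1.12 for sg/sg mice. The liver fall was 23-fold, the WAT groups overlapped, and the interaction was 4.24 ± 0.38 (adjusted p = 3.2e-06), with 3.29 under the slide block (adjusted p = 0.00785). It belongs to a family of near-identical genes, so the copy that changed is uncertain.

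Cidec, which fuses lipid droplets in white adipocytes and in fatty liver (mm7 chr6:113585627-113585686), was at 0.03, 4.63, 2.57, 1.57 and 1.47 in WT liver and at -1.45, -1.77, -1.87, -0.88 and -0.85 in sg/sg liver. On the WAT arrays it stood at 7.81, 7.30, 7.63, 7.46 and 7.57 in WT and at 7.66, 7.97, 7.61, 8.11 and 7.70 in sg/sg mice. The livers did not overlap and the WAT groups did. The interaction of 3.68 ± 0.74 (adjusted p = 0.00176) was 3.41 with the slide block (adjusted p = 0.119), and the liver effect within slide 2 was -3.17 against -3.42 overall. Its relative Cidea, described above, went opposite ways.

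Ppp1r3g, a glycogen-targeting subunit of PP1, fell by 3.43 in liver and had a WAT effect of 0.25 (-0.69 to 1.19), with 2 of 5 sg/sg WAT arrays well above background. Vnn1, the pantetheinase that PPARα induces, fell by 2.09 in liver. Npal1 and Pde4d were not well above background on any sg/sg liver array and were at least 4.58-fold and 1.07-fold lower there. Abcc3, a bile acid exporter, fell by 1.34, Egr1, an immediate early gene, by 2.36, and Trib3, a stress-induced pseudokinase that binds AKT, by 1.83. Col5a3, a chain of type V collagen, fell by 1.44, but its other tested probe gave an interaction of -0.23 against 1.45, so its probes disagree. None of these 8 genes kept an interaction call with the slide block: the adjusted p was 0.111 for Ppp1r3g, 0.0814 for Vnn1, 0.109 for Npal1, 0.207 for Pde4d, 0.223 for Abcc3, 0.327 for Egr1, 0.196 for Trib3 and 0.0993 for Col5a3. Within liver slide 2 the effects were -1.14 for Trib3, -1.04 for Abcc3, -2.29 for Egr1 and -2.41 for Vnn1.

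**Figure D4:**
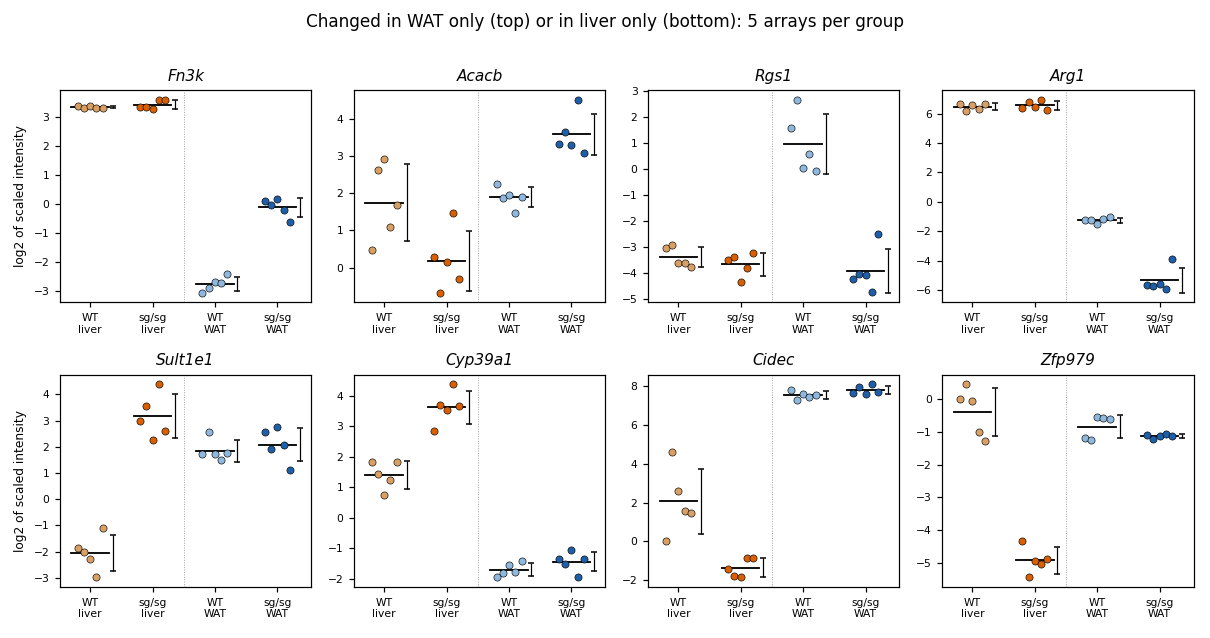
Levels of 4 genes changed in WAT only (Fn3k, Acacb, Rgs1 and Arg1, top) and of 4 changed in liver only (Sult1e1, Cyp39a1, Cidec and Zfp979, bottom), as log2 of intensity over each array's 75th percentile, with 1 point per array, a line at the mean of 5 and a bar of 1 SD. In the tissue where each gene was called, the WT and sg/sg points do not overlap, and in the other tissue they do. The rule that named the largest one-tissue interactions required genotypes fully apart in the called tissue.

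In 39 genes both tissues changed the same way but by unequal amounts, 27 with the larger change in WAT and 12 with the larger change in liver. Ubd (FAT10), a ubiquitin-like protein induced by interferon, was at 5.00, 5.40, 4.49, 4.75 and 4.31 in WT WAT and at -1.23, -0.29, -1.31, -0.95 and 1.05 in sg/sg WAT, a fall of 40.4-fold. In liver it fell 4.25-fold, and the interaction was -3.25 ± 0.70 (adjusted p = 0.00295, and 0.123 with the slide block). Agt, the precursor of angiotensin, rose 3.70-fold in WAT and 1.45-fold in liver, with an interaction of 1.35 (1.69 with the slide block, adjusted p = 0.00785). Its liver effect of 0.53 was 0.21 within slide 2.

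Osbpl3, an oxysterol-binding protein, fell 16.5-fold in liver and 2.28-fold in WAT. Rgs16, a regulator of G protein signalling, fell 14.0-fold and 1.80-fold, and its interaction lost its call when any of 4 single arrays was left out. Zfp982 fell by 2.54 and 0.78. Sel1l3 and Afp fell more in WAT, with interactions of -1.97 and -1.80, and that of Afp was 0.10 with normexp, opposite in sign. The slide block ended the calls of Osbpl3, Zfp982, Sel1l3 and Afp (adjusted p = 0.092, 0.0694, 0.309 and 0.315).

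By function, each list was described as a whole. A list was read by its count of calls beside the 21.5% of all tested genes, and by its medians beside 0.05, 0.08 and 0.04. Counts by direction stand beside those over all 17120 genes: 1580 higher and 1184 lower in liver, 2762 higher and 1739 lower in WAT. Counts with the slide block stand beside 710 of the 17120, and those with normexp beside 2265. Of 36 genes of fatty acid oxidation, 19 had an interaction call, each with the WAT effect above the liver effect. In liver 13 fell and none rose, and in WAT 11 rose and 1 fell. The medians were -0.36 in liver and 0.24 in WAT. Those in opposite directions included Ppara, Acot2, Acot4, Hadh, Echs1 and Eci1, which act on several steps of the pathway. With the slide block 9 of the 36 were called.

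In fatty acid and triglyceride synthesis 14 of 26 genes were called, 13 with the WAT effect above the liver effect, and the medians were -0.69 in liver and 0.53 in WAT. Besides Mogat1, Thrsp, Gpat3 and Lpin1 in opposite directions, Srebf1, Mlxipl, Acaca, Acacb, Fads1 and Gpam changed in WAT only, and Elovl1, Elovl5 and Lpin2 in liver only. Of 16 genes of lipid droplets and lipolysis 9 were called, 8 above and 1 below. The slide block left 4 of the 26 and 2 of the 16 called. Pnpla2 (ATGL), the first lipase of stored triglyceride, had a WAT effect of 0.49 and a liver effect of -0.26 (-0.48 to -0.04), which was not called, and its interaction was not called with the slide block (adjusted p = 0.0569).

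All 14 calls among 22 genes of the tricarboxylic acid cycle, 13 among 20 genes of branched-chain amino acid breakdown and 18 among 43 of oxidative phosphorylation had the WAT effect above the liver effect. The median WAT effects were 0.39, 0.70 and 0.36, and the median liver effects -0.14, -0.10 and 0.01. The slide block left 5, 5 and 2 of these genes called, and normexp 9, 7 and 7. In branched-chain breakdown 17 of 20 genes rose in WAT and 4 fell in liver. Acat1, the mitochondrial thiolase, was at 4.65, 4.77, 4.79, 5.02 and 4.67 in WT liver and at 4.27, 3.71, 4.05, 3.99 and 4.15 in sg/sg liver, and its effects were -0.74 and 0.56. Hsd17b10, a dehydrogenase of isoleucine breakdown, had -0.71 and 0.56, and Mccc1, of leucine breakdown, -0.29 and 0.75. The other tested Mccc1 probe had -0.13 and 0.48, and its interaction was not called (limma, adjusted p over probes = 0.291). Sdhb, a subunit of succinate dehydrogenase, had -0.35 and 0.35, and its partner Sdha rose by 0.62 in WAT only. The call of Sdhb was lost with the slide block (adjusted p = 0.0518).

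Among the 22 clock genes 8 were called, all with the WAT effect above the liver effect, among them Per2, Bhlhe40 and Csnk1e in WAT only, Cry2 and Ciart in liver only, Bhlhe41 in opposite directions and Hlf with neither effect called. Csnk1e, a kinase of the PER proteins, had effects of -0.29 (-0.60 to 0.01) in liver and 0.73 in WAT. With the slide block 3 of 22 were called, without Csnk1e (adjusted p = 0.0619). The hour at which tissues were taken is not given in the labels used here.

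**Figure D5:**
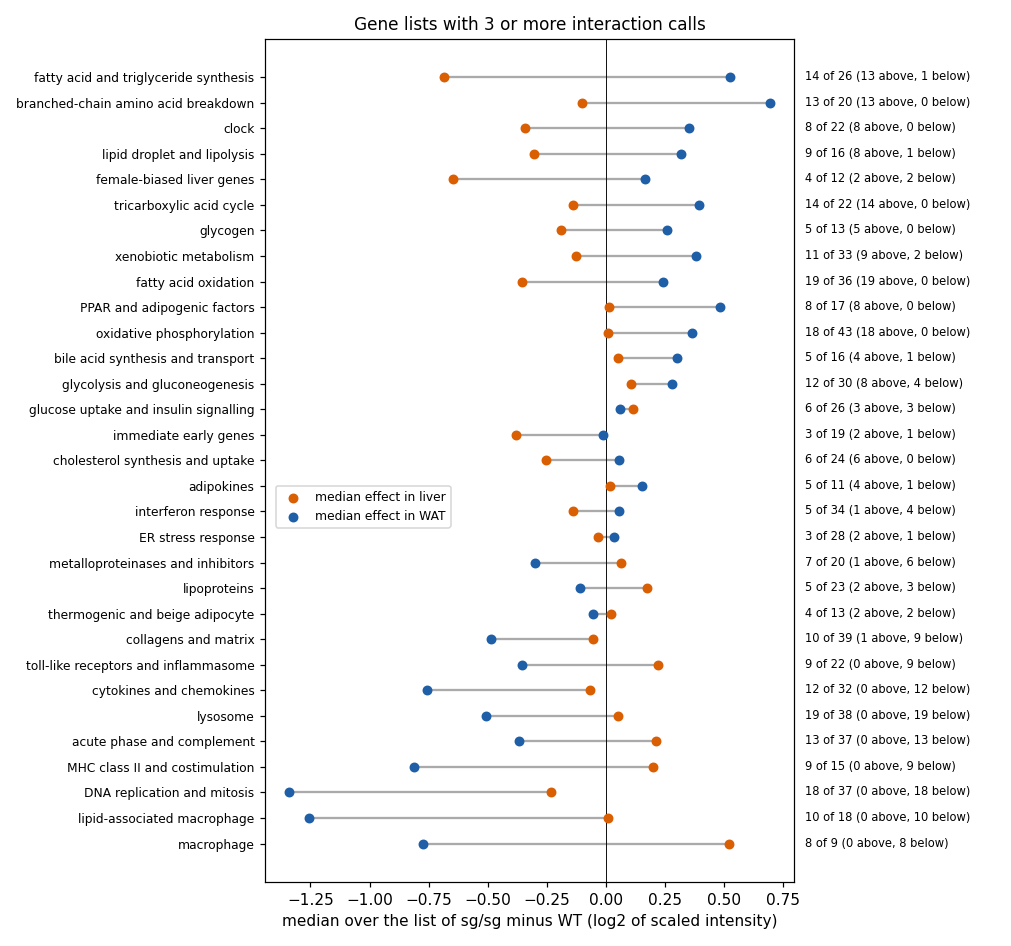
Median genotype effect (sg/sg minus WT, log2 of scaled intensity) in liver and in WAT over the tested members of each function list, and of the macrophage markers, with 3 or more interaction calls, ordered by the median interaction. The counts at right give the interaction calls, and how many had the WAT effect above or below the liver effect. Fatty acid, lipid droplet, clock and mitochondrial lists lie toward the top with WAT to the right of liver. Most immune lists and the lysosome and cell division lists lie toward the bottom with WAT to the left. Lipoproteins have WAT to the left of liver (-0.11 against 0.18), and interferon response has it to the right (0.06 against -0.14).

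Of 32 cytokines and chemokines 12 were called, of 22 Toll-like receptor and inflammasome genes 9, of 18 genes of lipid-associated macrophages 10, of 15 genes of MHC class II and costimulation 9 and of 37 acute phase and complement genes 13. In each of these calls the WAT effect was below the liver effect. The median WAT effects were -0.76, -0.35, -1.26, -0.81 and -0.37, and the median liver effects -0.07, 0.22, 0.01, 0.20 and 0.21. In these lists 5, 3, 3, 4 and 1 genes were called with the slide block, which left 710 of all 17120 genes called.

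Lgals3 (galectin 3) was at 6.14, 6.35, 5.20, 5.29 and 5.31 in WT WAT and at 3.41, 3.48, 3.51, 3.72 and 3.97 in sg/sg WAT, while its liver effect was 0.31 (-0.14 to 0.77). Tyrobp, the signalling partner of TREM2, fell by 1.60 in WAT and Ctss, the cathepsin that trims the invariant chain of MHC class II, by 1.64, with liver effects of 0.43 and 0.46 that were not called. H2-DMb1, H2-DMb2 and the costimulator Cd40 fell by 1.44, 1.69 and 0.75 in WAT. Cd40 lost its interaction call with normexp (adjusted p = 0.273). In the acute phase list C1qa, C1qb, C1qc and Hp went opposite ways, while Cfb, complement factor B, fell by 0.78 in WAT, and C3ar1, the receptor of C3a, by 1.74. The call of C3ar1 was lost with the slide block (adjusted p = 0.0876).

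Lysosomal genes had 19 calls of 38, all with the WAT effect below the liver effect, and median effects of 0.05 in liver and -0.51 in WAT. Atp6v1b2, a subunit of the proton pump, fell by 1.17 in WAT. DNA replication and mitosis had 18 calls of 37 in the same sense: 35 of the 37 fell in WAT and 5 in liver, at medians of -1.34 and -0.23. Kif23 and Kif22, motors of cell division, fell by 1.32 and 1.52 in WAT and Tk1, thymidine kinase, by 2.32. Kif23 lost its interaction call with normexp (adjusted p = 0.0966). The Tk1 liver effect was 0.46 over all arrays and -0.40 within slide 2, and its interaction lost its call with the slide block (adjusted p = 0.158). With that block 4 of the 38 lysosomal and 6 of the 37 replication genes were called, and with normexp 19 and 8.

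Collagen and matrix genes had 10 calls of 39 (25.6%), close to the share of all genes, 9 of them with the WAT effect below the liver effect. In WAT 21 of 39 fell, among them Postn by 1.53 and Plod1 by 0.84, whose interaction calls were lost with the slide block (adjusted p = 0.0509 and 0.211). With it 1 of the 39 was called. Of metalloproteinases and their inhibitors 7 of 20 were called, including Adam8, with effects of -1.05 in liver (-1.85 to -0.25, not called) and -3.41 in WAT, and Adam17, with 0.06 and -0.72. Cell markers other than those of macrophages gave few calls. Those of hepatocytes had none of 7, of T and NK cells none of 7 and of mesothelium none of 4, and of endothelium 1 of 6 was called. Ribosomal protein genes had none of 43, and over all genes 5944 had an unadjusted interaction p under 0.05 in limma. The summed mesothelial level ran from 6.72 to 28.9 over the WT arrays of WAT and from 22.5 to 35.7 over the sg/sg arrays, and that of skeletal muscle from 1.35 to 4.90 and from 1.84 to 10.6. Their part in the WAT results was not tested.

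Of 26 genes of glucose uptake and insulin signalling 6 were called, 3 on each side, and of 30 of glycolysis and gluconeogenesis 12, 8 above and 4 below. Pkm, the pyruvate kinase of non-hepatic tissues, rose by 0.66 in liver only, and by 0.36 within slide 2. All 5 calls among 13 glycogen genes had the WAT effect above the liver effect, Gbe1, the branching enzyme, through a liver fall of 0.65. Of 17 PPAR and adipogenic factors 8 were called, all in that sense, with Pparg, Ppargc1a, Cebpa, Klf15 and Klf5 changed in WAT only. Of 34 interferon response genes 5 were called and of 28 ER stress genes 3, both shares below that of all genes. All 6 calls among 24 genes of cholesterol synthesis and uptake had the WAT effect above the liver effect, as did 9 of the 11 calls among 33 genes of xenobiotic metabolism. None of the glucose uptake, interferon, ER stress or cholesterol genes was called with the slide block, and 3 of the glycolysis, 1 of the glycogen, 3 of the PPAR and 4 of the xenobiotic genes were. Pkm and Gbe1 lost their calls (adjusted p = 0.273 and 0.148). Fatty acid uptake and activation had 1 call of 18 (5.56%). Lipoprotein genes had 5 of 23 (21.7%), 2 above and 3 below, and thermogenic genes 4 of 13, 2 above and 2 below. Adipokines had 5 of 11 and bile acid genes 5 of 16, each with 4 above and 1 below. Female-biased liver genes had 4 of 12, male-biased ones 1 of 18 and immediate early genes 3 of 19. In the order given, the slide block left 1, 0, 1, 2, 1, 1, 0 and 0 called.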

How the data were processed

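Liver and white adipose tissue (WAT) RNA of WT and sg/sg mice was measured on 20 one-colour Agilent arrays of 45018 spots. The deposited intensity values are the processed signals of Agilent Feature Extraction 9.5, per the file headers and the submitters' processing notes, background-corrected by that software and not scaled between arrays. The deposited value table held the same values.

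Control spots (leaving 43379) and flagged outlier spots were left out, spots of a probe were averaged, and log2 of each array's intensity was taken relative to its 75th percentile. Of 41174 probes, 22944 were named through RefSeq accessions, 11765 by the name in the files and 6465 not at all. A gene was represented by its probe of highest mean over all 20 arrays among those well above background on 4 or more arrays of each tissue. Effects were fitted with limma 3.58.1 in R 4.3.3 (lmFit, eBayes): the interaction over all 20 arrays, each tissue's effect in that tissue alone, with Benjamini-Hochberg adjustment over the 17120 genes tested and a threshold of 0.05. Each p-value and adjusted p given is limma's. For genes tested for interaction, where a genotype was not well above background on any array, the fold is a lower bound. No label ties an array to a mouse, so p-values measure the spread between these arrays. The scripts were tested on simulated data. The genes and lists were chosen with earlier results of these data known. The named genes were Rora, the 10 with the smallest interaction p, the 6 largest interactions of each one-tissue class and direction with genotypes fully apart, the 8 opposite genes in each direction with the largest smaller effect, the 6 largest of unequal size and up to 3 members with the smallest p from each list with 3 or more calls. Genes printed beyond that rule were chosen after their values were seen. Alternatives were other background correction, scaling, filters, blocks, array weights and each array left out. Some genes are not reported here.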

Additional observations from a re-analysis of the deposited data

Results flagged for a closer look

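Of the genes named by the rule, 118 had a genotype effect that differed between WAT and liver by the test of the interaction itself (limma, Benjamini-Hochberg), and each value here is the WAT effect minus the liver effect on the log2 scale. In liver genotype nearly coincides with slide: 55 of these 118 lost the call with the slide block and 64 with liver slide 2 and all WAT arrays, and Atf3 lost it in 13 of the fits that leave out 1 array. With normexp background correction 23 of the 118 lost the call. Among genes changed in WAT only with the WAT effect above the liver effect, it was 2.55 for Fn3k, 3.67 for Cyp1a1, 3.25 for Acacb, 3.06 for Pnpla3, 2.81 for Pon1, 2.56 for Ly6d, 1.02 for Csnk1e, 0.75 for Pnpla2 and 1.58 for Ppargc1a. For more of these it was 0.66 for Adipor2, 2.04 for Ppp1r3b, 0.95 for Fdft1, 1.77 for Abcg5, 0.85 for Sdha, 1.01 for Suclg2 and 1.12 for Nr4a2. Other tested probes of Adipor2 gave 0.29 and 0.54, and that of Fdft1 0.07, all without an interaction call. Among genes changed in WAT only with the WAT effect below the liver effect, it was -4.21 for Arg1, -7.71 for Akr1b7, -4.6 for Rgs1, -4.52 for Rnf128, -4.49 for Lipf, -4.04 for Il1rn, -1.49 for Pltp, -2.74 for Ccl7 and -2.35 for Lgals3. For more of these it was -2.03 for Tyrobp, -2.1 for Ctss, -1.1 for Cd40, -2.02 for H2-DMb2, -1.48 for H2-DMb1, -1.28 for Irf8, -0.99 for Cfb, -2.04 for C3ar1 and -1.36 for Atp6v1b2. It was also -1.47 for Postn, -1.12 for Plod1, -0.78 for Adam17, -2.36 for Adam8, -1.92 for Kif23, -2.78 for Tk1, -1.64 for Kif22 and -1.21 for Sdf2l1. Among genes changed in liver only with the WAT effect above the liver effect, it was 4.24 for Zfp979, 3.68 for Ppp1r3g, 3.68 for Cidec, 2.83 for Vnn1, 2.54 for Npal1, 2.38 for Pde4d, 2.13 for Trib3, 1.3 for Gbe1 and 1.21 for Abcc3. For more of these it was 1.45 for Col5a3, 1.62 for Egr1, 2.03 for Chac1 and 1.76 for Abcd2. Among genes changed in liver only with the WAT effect below the liver effect, it was -4.99 for Sult1e1, -3.1 for Ppp1r42, -2.2 for Fam222a, -2.15 for Cpne6, -2.06 for Pou4f1, -1.95 for Cyp39a1 and -1.03 for Pkm. Among genes that changed in opposite directions with the WAT effect above the liver effect, it was 2.16 for Syde2, 2.87 for Fam13a, 2.65 for Dennd2d, 1.97 for Sfxn1, 2.72 for Acot4, 3.64 for Cabp4, 4.3 for Mogat1, 3.74 for Thrsp and 2.78 for Krt23. For more of these it was 3.24 for Acss3, 6.74 for Cidea, 2.72 for Aatk, 2.85 for Bhlhe41, 3.06 for Plin4, 1.38 for Ppara, 2.46 for Acot2, 2.21 for Gpat3 and 1.74 for Ppargc1b. It was also 7.17 for Cfd, 1.68 for Pfkfb1, 1.56 for Fmo1, 0.7 for Sdhb, 0.68 for Uqcrc2, 1.3 for Acat1, 1.27 for Hsd17b10 and 1.04 for Mccc1. The other Mccc1 probe gave 0.61 without an interaction call. Among genes that changed in opposite directions with the WAT effect below the liver effect, it was -1.81 for Dna2, -1.42 for Kcnq1, -3.81 for Dhrs9, -2.42 for Cryba4, -2.08 for Mrgpre, -2.14 for Klra2, -2.15 for Lbp, -2.63 for Evi2 and -2.43 for Irf5. For more of these it was -2.28 for Otulinl, -1.88 for Tmem26, -2.05 for Grb14, -3.12 for Hk3, -1.28 for Abcg1, -1.47 for Tgfb1, -1.54 for Pycard, -1.68 for Casp1 and -1.54 for Tlr7. It was also -1.39 for C1qa, -2.88 for Timp1, -2.56 for Cd68 and -1.29 for Csf1r. The other Timp1 probe fell in both tissues. Among genes that changed the same way by unequal amounts with the WAT effect above the liver effect, it was 2.96 for Rgs16, 2.86 for Osbpl3, 1.76 for Zfp982 and 1.35 for Agt. Among genes that changed the same way by unequal amounts with the WAT effect below the liver effect, it was -3.25 for Ubd, -1.97 for Sel1l3, -1.8 for Afp and -1.5 for Atf3.

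In 42 of 476 groups of 5 arrays (8.82%) 1 array lay far from the other 4 by Dixon's test, where chance flags about 1 in 20 groups. WT WAT replicate 2 did so 12 times, sg/sg WAT replicate 4 did so 10 times and WT liver replicate 2 did so 5 times. WT WAT replicate 2 was the highest of its group at log2 levels of 2.58 for Sult1e1, -2.88 for Ppp1r42, -0.07 for Otulinl and 1.59 for Lipf. WT WAT replicate 2 was the lowest of its group at log2 levels of -0.05 for Mogat1, 4.0 for Thrsp, -3.94 for Acss3, 5.75 for Cfd, 0.59 for Fmo1, 5.59 for Cfb, 4.92 for Col5a3 and 0.47 for Abcd2. WT WAT replicate 3 was the lowest of its group at log2 levels of 0.46 for Cidea. WT liver replicate 1 was the highest of its group at log2 levels of 1.15 for H2-DMb1. WT liver replicate 1 was the lowest of its group at log2 levels of 0.67 for Acot4 and -4.46 for Cabp4. WT liver replicate 2 was the highest of its group at log2 levels of 3.01 for Ly6d, 2.29 for Mogat1, 1.28 for Ubd and -1.56 for Adam8. WT liver replicate 2 was the lowest of its group at log2 levels of 6.21 for Hsd17b10. WT liver replicate 3 was the lowest of its group at log2 levels of -6.44 for Ppp1r42. sg/sg WAT replicate 1 was the lowest of its group at log2 levels of -1.19 for Kif22. sg/sg WAT replicate 2 was the highest of its group at log2 levels of -3.87 for Cyp1a1. sg/sg WAT replicate 4 was the highest of its group at log2 levels of -2.19 for Pde4d, 5.03 for Gpat3, 3.16 for Pkm, 5.63 for Gbe1 and 1.46 for Sdf2l1. sg/sg WAT replicate 4 was the lowest of its group at log2 levels of -2.98 for Otulinl, -5.33 for Cabp4, -2.15 for Acss3, -0.6 for Plod1 and 0.75 for Abcd2. sg/sg WAT replicate 5 was the highest of its group at log2 levels of -3.87 for Arg1 and 2.28 for Abcg1. sg/sg WAT replicate 5 was the lowest of its group at log2 levels of 0.4 for Dennd2d. sg/sg liver replicate 2 was the lowest of its group at log2 levels of -4.97 for Abcd2. sg/sg liver replicate 3 was the highest of its group at log2 levels of 7.64 for Pon1. sg/sg liver replicate 4 was the lowest of its group at log2 levels of -3.88 for Cd40. sg/sg liver replicate 5 was the highest of its group at log2 levels of -1.33 for Tgfb1 and -3.09 for C3ar1. These levels were not set against any other measure.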

How the results depend on the processing

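The slide, which in liver nearly coincides with genotype, moved all 4 counts. Interaction calls, 3673 in the reported fit, numbered 2265 with normexp, 710 with the slide as a fixed block, 510 with liver slide 2 and all WAT arrays, 5689 with array weights and 1810 at a threshold of 0.01, and 4, 1 and 1 with liver slide 2 and WAT slide 1, 2 or 3 alone (chosen after seeing the data). WAT-only genes numbered 932, 629, 443, 2893 and 1032 under the first 5 of these. Liver-only genes numbered 1 with the slide block, 0 with slide 2, 341 without a filter on dim probes, 1314 with weights and 115 at 0.01. Opposite genes numbered 236 with normexp, 242 with median scaling, 111 without the filter, 0 with the slide block and with slide 2, 247 with the slide as a random block, 723 with weights and 23 at 0.01. The counts of 0 come from limma with few liver effects called: 1431 and 1351 had an unadjusted p under 0.05 in liver with the slide block and with slide 2. For the other settings the cause was not tested.

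With the replicate block 3437 interactions were called, 488 genes were liver-only and 165 opposite. No pairing by replicate number was seen between liver and WAT: the correlations ran from -0.07 to 0.15, and 3 of 10 arrays matched best with their own number. Liver and WAT of the same mouse need not deviate together, so this cannot decide whether numbers mark mice. With 1 array left out, interaction calls ran from 3001 to 4529, WAT-only genes from 1478 to 2538, liver-only genes from 288 to 982 and opposite genes from 135 to 465. The opposite count was 169 and 135 without WT liver replicates 3 and 4 and 240 without sg/sg liver replicate 5.

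Signs turned for few named genes. The value for Rora was -0.12 with quantile normalization of all arrays and -0.0092 with liver slide 2 and WAT slide 1. That for Cpne6 was 0.57 with the slide block, 0.40 with slide 2 and all WAT arrays, and 0.74, 0.86 and 0.022 with WAT slides 1, 2 and 3. With normexp it was 0.025 for Cryba4, 0.016 for Klra2, 0.10 for Afp and 0.44 for Tmem26. For Cryba4, Klra2 and Tmem26 it was the WAT effect that turned with normexp, while the liver effect kept its sign. Apart from this, signal was lower in liver, which limits the dim probes there.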

Other observations

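Some genes passed the filter of 4 or more arrays well above background in 1 tissue only, and their interaction was not tested. Several of them were above background on up to 3 arrays of the other tissue. Of 211 such genes in liver, 57 changed with genotype, and of 5226 in WAT, 1186 did, 707 of them higher and 479 lower in sg/sg WAT (limma, adjusted over the genes of that tissue). Among the 17120 genes tested in both tissues, 2764 (16.1%) were called in liver and 4501 (26.3%) in WAT. A gene could pass this filter through the arrays of 1 genotype alone. A change may then rest on values near the floor in the other genotype, and no lower bound was computed for these genes. The examples that follow were chosen after their values were seen. In WAT, Mmp12, the macrophage elastase, fell by 5.61 on the log2 scale (adjusted p = 0.00138), Atp6v0d2, a subunit of the lysosomal proton pump, by 4.96 (0.00111) and Gpnmb, a transmembrane glycoprotein, by 3.91 (0.0013). Mstn, which encodes myostatin, the restraint on muscle growth, fell by 5.03 (0.000709). The homeobox genes Hoxa10, Hoxa11 and Lhx9, which mark position in the body, rose by 2.79, 2.79 and 2.97 (0.014, 0.023 and 0.0195).

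In liver, Tff3, a trefoil peptide of mucous epithelia, rose by 3.70 (limma, adjusted p = 0.0109) and Acmsd, an enzyme that diverts tryptophan from NAD synthesis, by 2.58 (0.00945). Acot3, a peroxisomal thioesterase, fell by 3.48 (0.00933), and Mtnr1a, a melatonin receptor, by 3.0 (0.00896). Whether these liver values hold within a slide was not tested.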
